A study of Mus musculus with 2 samples.

Results

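The genes described here are the cytoplasmic ribosomal protein genes, taken by name as every *Rpl* or *Rps* symbol of the standard form together with *Rplp0*, *Rplp1*, *Rplp2* and *Rpsa*, without the S6 kinase genes (*Rps6k*). The rule found 80 of the 29924 gene names on the array, 48 of the large and 32 of the small subunit, and used no measured value. The samples were ureters of newborn (P0) NMRI wildtype mice, cultured on transwell membranes for 18 h either with 5 µM IWP-2 or with its solvent DMSO (control). IWP-2 inhibits PORCN, the acyltransferase that WNT ligands need for secretion, and the comparison asked which transcripts depend on WNT signaling in the postnatal ureter. Pooled RNA of a control and a treated group was hybridized together on each of 2 two-colour arrays. Replicate 1 held female pools with the control RNA in green (AlexaFluor555) and the IWP-2 RNA in red (AlexaFluor647), and replicate 2 held male pools with the dyes swapped. Sex and dye orientation therefore cannot be told apart, and the 2 arrays limit the precision of every value.

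Ribosomal proteins assemble with ribosomal RNA into the small subunit, which decodes the mRNA, and the large subunit, which forms the peptide bond. Their mRNAs are among the most abundant in any cell, and they are made in near-equal proportions. Most of them begin with a terminal oligopyrimidine (TOP) tract, a C followed by a run of C and T, through which mTOR and the LARP1 protein set how well they are translated. MYC, a classical WNT target in the intestine, raises transcription of ribosomal protein and ribosome biogenesis genes. An array measures RNA level only, so translation of these mRNAs was not measured. In whole ureters, fewer cells of a type and less RNA per cell cannot be told apart.

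Promoter entries of RefSeq (build GRCm38.p6) were available here for 59 of the 80 genes. A C at the annotated start followed by at least 4 C or T, read on the transcript strand, was present in 13 of these 59 (22.0%) and in 3.01% of the 27025 genes in that collection. Allowing the tract to begin within 5 bases of the annotated start raised this to 28 of 59 (47.5%), against 21.2% of all genes. The 30 bases around the start of 8 genes with the tract are shown because it is the sequence feature that ties these mRNAs together. Each begins 10 bases before the start, and capitals mark the tract.
*Rps6* (GRCm38.p6 chr4:86857348-86857377, minus strand): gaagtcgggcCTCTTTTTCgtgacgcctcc
*Rps21* (chr2:180257369-180257398, plus strand): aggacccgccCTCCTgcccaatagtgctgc
*Rps15a* (chr7:118116128-118116157, minus strand): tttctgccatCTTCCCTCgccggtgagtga
*Rps27* (chr3:90213629-90213658, minus strand): cgctttcgctCCTTTCCggcggtgacgacc
*Rpl38* (chr11:114668570-114668599, plus strand): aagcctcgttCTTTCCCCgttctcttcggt
*Rpl15* (chr14:18270967-18270996, minus strand): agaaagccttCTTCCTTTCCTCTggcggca
*Rpl35* (chr2:39005112-39005141, minus strand): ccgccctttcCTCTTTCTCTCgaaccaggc
*Rplp2* (chr7:141447641-141447670, plus strand): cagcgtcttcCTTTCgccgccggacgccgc
The windows of the gene with the lowest mean ratio (*Rpl39*) and the gene with the highest (*Rpl11*) held no such tract exactly at the annotated start, and are given for comparison without capitals.
*Rpl39* (chrX:37085203-37085232, minus strand): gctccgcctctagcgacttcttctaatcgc
*Rpl11* (chr4:136053374-136053403, minus strand): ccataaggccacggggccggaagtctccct
The *Rpl39* window does hold a tract that begins within 5 bases of the start, and so met the wider search. The *Rpl11* window did not, and its run of C and T lies further downstream. Other members with the tract were *Rpl14*, *Rpl28*, *Rpl35a*, *Rps10* and *Rps18*.

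Signals are the deposited, background-corrected and dye-normalized spot intensities after a further loess normalization within each array, averaged over the spots of a probe. The brightest probe stands for a gene, and a gene was tested when its mean signal passed 100 in control or treated pools. Of the 80 genes, 77 were tested. Their mean signals over the 4 pools lay between 2664 (*Rps4l*) and 33180, with 74 above 10000. The *Rps4l* probe is annotated to a non-coding RefSeq record. No spot was saturated by the scanner's flag. *Porcn*, the gene of the enzyme that IWP-2 blocks, had a log2 ratio of IWP-2 over control of −0.041 (SE 0.068). *Axin2*, a direct WNT target used as the readout of the pathway, fell from 181 to 42.2 in replicate 1 and from 154 to 46.7 in replicate 2, a mean log2 ratio of −1.91 (SE 0.10, limma adjusted p = 0.00082). All 8 urothelial, all 6 smooth muscle and all 4 lamina propria marker genes were bright enough to be tested and 0 of 5 kidney tubule markers were. Of the other cell types, 4 endothelial, 4 macrophage, 4 Schwann cell or neuron and 2 erythroid markers were tested. *Aldh1a2*, of lamina propria fibrocytes, was the only marker that limma called (mean log2 ratio −0.63, adjusted p = 0.028). The other fibrocyte markers had mean log2 ratios of −0.64 (*Car3*), −0.48 (*Thy1*) and 0.37 (*Foxf1*). The 8 urothelial markers had a median of 0.26, with 5 of them at an unadjusted limma p under 0.05. The median was 0.14 over the smooth muscle, 0.21 over the macrophage and 0.18 over the erythroid markers. Over the endothelial markers it was 0.037, and over the Schwann cell or neuron markers −0.22.

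No change under IWP-2 beyond the error of the arrays was seen in transcripts of the 77 tested ribosomal protein genes. The 3 untested genes are described with the paralogs. Limma called 0 of the 77 genes tested at an adjusted p of 0.05, where it called 1.25% of all 14336 genes tested, 0.886% lower and 0.363% higher. At an unadjusted p of 0.05 the count was also 0, against 12.9% of all genes. The filter of the study, a control signal above 100 and at least 1.5-fold in both arrays, held 0 members in either direction, against 0.363% of all genes lower and 0.0783% higher. With 1.2-fold in place of 1.5-fold the count stayed 0, against 1.81% lower and 0.968% higher. Apart from the 12.9%, these shares are so small that a count of 0 among 77 genes says little by itself.

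The median of the mean log2 ratio was 0.00023 over the 77 genes and −0.0060 over all genes tested. The members' means ran from −0.10 (*Rpl39*) to 0.072 (*Rpl11*), and 76 of 77 lay within 0.1 of 0, as did 70.7% of all genes. Their SD was 0.030, against 0.163 over all genes and 0.087 over the 1082 other genes with a mean signal above 10000. The narrow spread was not particular to them. The 77 tested genes of mitochondrial ribosomal proteins had an SD of 0.038, with 77 of 77 within 0.1 of 0. The comparison with other bright genes was chosen after seeing the data, and 4 of those genes were called. The 95% interval of the mean lay inside 1.25-fold in either direction for 77 of 77 members and for 79.8% of all genes. It also did for 77 of 77 mitochondrial ribosomal protein genes. Among the members, the lowest bound was that of *Rpl39*, at 0.826 of the control level. The highest was that of *Rps14*, at 1.18 times the control level. The SE of a member was 0.066 to 0.082 on the log2 scale, and rests mostly on the spread that limma takes from all genes, since 2 arrays leave 1 degree of freedom of their own.

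**Figure D1:**
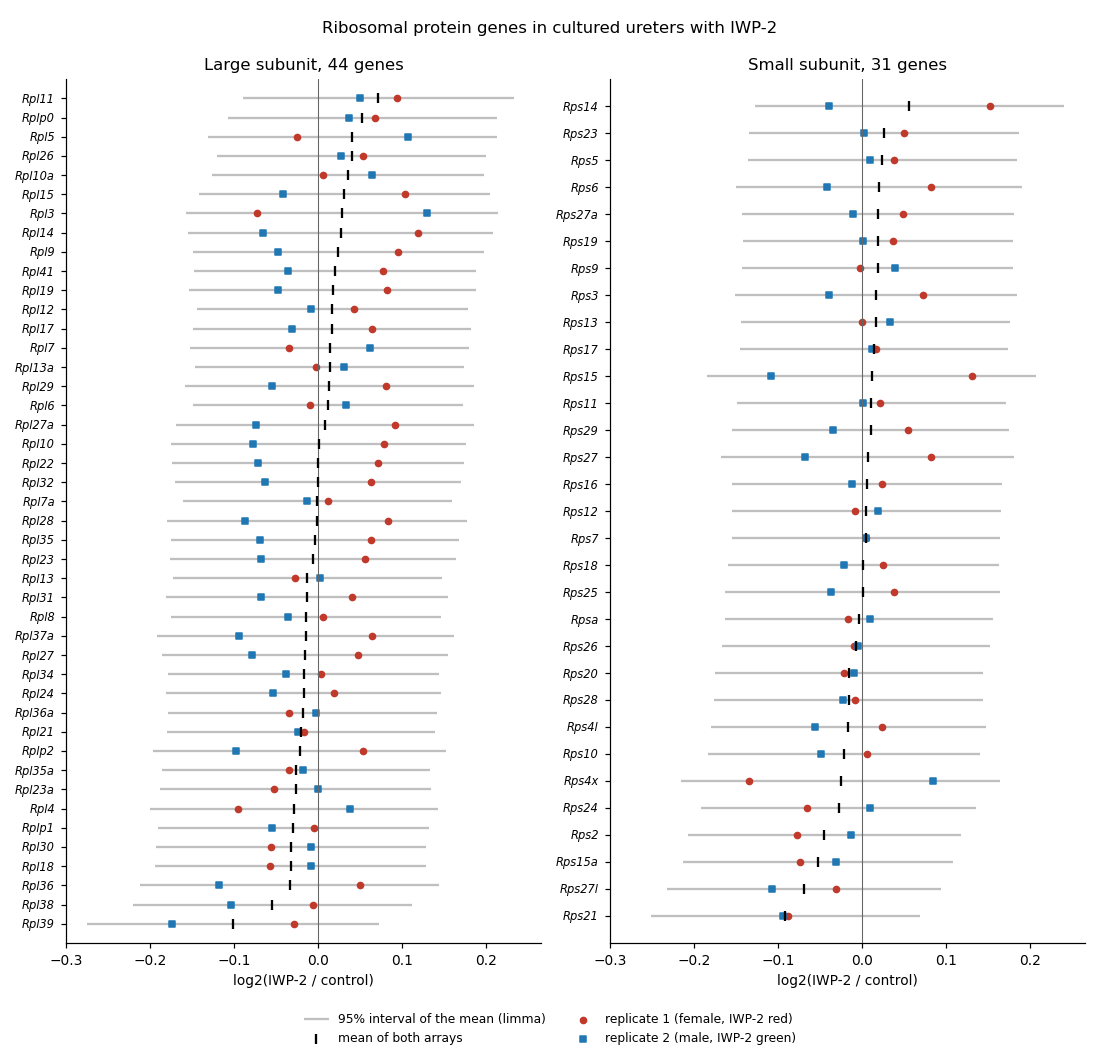
Log2 ratio of IWP-2 over control (horizontal axis) for 44 large and 31 small subunit genes (rows, ordered by mean). Red circles are replicate 1 (female pools), blue squares are replicate 2 (male pools), black ticks are the mean of both arrays and grey lines are the 95% interval from limma. Every grey line crosses 0, and the circle and the square often lie on opposite sides of it.

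The 8 genes with the lowest mean ratios were *Rpl39*, *Rps21*, *Rps27l*, *Rpl38*, *Rps15a*, *Rps2*, *Rpl36* and *Rpl18*. *Rpl39* encodes a small basic protein that lines the peptide exit tunnel of the large subunit. Its signal was 24162 in control and 23690 in IWP-2 pools of replicate 1, and 23489 and 20815 in replicate 2. The IWP-2 pool of replicate 2 was the lowest of the 4, and the log2 ratios of −0.028 and −0.17 averaged −0.10 (SE 0.072, limma adjusted p = 0.74). *Rps21*, a small subunit protein, gave 6526 in control and 6138 in IWP-2 pools of replicate 1, and 6248 and 5852 in replicate 2. Both control pools lay above both IWP-2 pools, with log2 ratios of −0.088 and −0.094 (mean −0.091, SE 0.066, adjusted p = 0.75). *Rps27l*, a paralog of *Rps27* that p53 can induce, gave 9556 and 9348 in replicate 1 and 10006 and 9289 in replicate 2, where both IWP-2 pools again lay below both controls. Its mean log2 ratio was −0.069 (SE 0.068). *Rpl38*, a large subunit protein needed for translation of Hox mRNAs in the mouse embryo, had ratios of −0.0063 and −0.10 (mean −0.055). *Rps15a* (−0.074 and −0.031), *Rps2* (−0.078 and −0.013) and *Rpl18* (−0.058 and −0.0085) were below 0 in both arrays, and *Rpl36* only in replicate 2 (0.049 and −0.12).

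The 8 highest means belonged to *Rpl11*, *Rps14*, *Rplp0*, *Rpl5*, *Rpl26*, *Rpl10a*, *Rpl15* and *Rpl3*. *Rpl11* and *Rpl5* bind a ribosomal RNA as a particle that joins the large subunit and that, when free, inhibits the p53 ligase MDM2. *Rpl11* gave 25636 in control and 27354 in IWP-2 pools of replicate 1, and 26767 and 27699 in replicate 2. Both IWP-2 pools lay above both controls, with log2 ratios of 0.094 and 0.049 (mean 0.072, SE 0.067, limma adjusted p = 0.84). *Rpl5* was 19203 and 18862 in replicate 1 and 19100 and 20573 in replicate 2. Its ratios of −0.026 and 0.11 had opposite signs (mean 0.041), so the partners did not share a direction in replicate 1. *Rps14*, a small subunit protein, gave 21357 and 23731 in replicate 1 and 24465 and 23795 in replicate 2. Its ratio of 0.15 in replicate 1 was the highest of any tested member in any array, beside −0.040 in replicate 2. *Rpl26* (0.053 and 0.027) and *Rpl10a* (0.0061 and 0.064) were above 0 in both arrays, while *Rpl15* (0.10 and −0.042) and *Rpl3* (−0.073 and 0.13) were not.

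**Figure D2:**
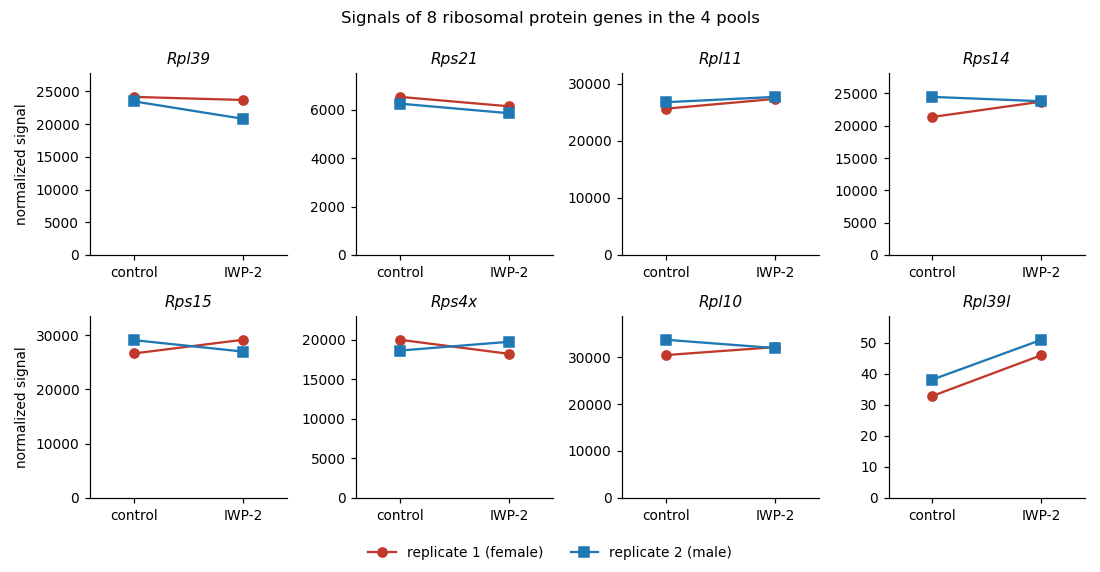
Normalized signal (vertical axis, each panel from 0 on its own scale) of 8 ribosomal protein genes in control and IWP-2 pools (horizontal axis). Red circles joined by a line are the pools of replicate 1 and blue squares those of replicate 2. *Rpl39* and *Rps21* slope down and *Rpl11* slopes up in both replicates, *Rps14*, *Rps15*, *Rps4x* and *Rpl10* slope in opposite directions, and *Rpl39l* lies near 40.

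*Rplp0*, *Rplp1* and *Rplp2* make the acidic stalk of the large subunit that recruits translation factors. *Rplp0*, which is also widely used as a reference gene for quantitative PCR, gave 27431 in control and 28736 in IWP-2 pools of replicate 1, and 28133 and 28864 in replicate 2. Its log2 ratios were 0.067 and 0.037, with a 95% interval of the mean from −0.11 to 0.21. *Rplp1* had ratios of −0.0049 and −0.055, and *Rplp2* of 0.053 and −0.098. The stalk genes therefore had no common sign across the arrays. *Rpsa*, which encodes a small subunit protein also known as a laminin receptor, was among the steadiest genes, with 25563 and 25258 in replicate 1 and 27538 and 27718 in replicate 2 (mean log2 ratio −0.0039). *Rps27a*, translated as a fusion with ubiquitin, had ratios of 0.048 and −0.011.

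*Rps6* is the small subunit protein that S6 kinases phosphorylate downstream of mTOR. Its signal was 30976 in control and 32789 in IWP-2 pools of replicate 1, and 33604 and 32637 in replicate 2. The control and IWP-2 pools overlapped, with a mean log2 ratio of 0.020 (SE 0.071). *Rps19*, the small subunit gene most often mutated in Diamond-Blackfan anaemia, gave 21454 and 22005 in replicate 1 and 22382 and 22397 in replicate 2 (mean 0.019). Its ratio in replicate 2 was 0.00094.

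The 50 tested members outside the genes named by these rules had smaller means, from −0.033 (*Rpl30*) to 0.027 (*Rpl14*), with limma adjusted p values of 0.98 to 1.00. In 26 of them both arrays lay within 0.05 of 0. *Rps7*, a small subunit gene, was the steadiest, with 20090 in control and 20152 in IWP-2 pools of replicate 1 and 20873 and 20936 in replicate 2, log2 ratios of 0.0045 and 0.0044. The pools of a replicate differed less than the replicates did. The single-array extremes of these 50 genes were −0.095 (*Rpl4*) and 0.12 (*Rpl14*) in replicate 1 and −0.095 (*Rpl37a*) and 0.062 (*Rpl7*) in replicate 2. *Rpl14* gave 28265 and 30695 in replicate 1 and 31741 and 30325 in replicate 2, so that its ratio was −0.066 in the second array.

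Some members have paralogs that are restricted to certain tissues. *Rpl3l* of striated muscle and *Rpl10l* of the testis lay at the floor of 15 in all 4 pools and were not well above background. Their probes are shown because they are the members not detected in these ureters.
*Rpl10l* probe (mm9 chr12:67384868-67384927, minus strand): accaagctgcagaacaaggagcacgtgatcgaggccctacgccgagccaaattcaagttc
*Rpl3l* probe (mm9 chr17:24872413-24872681, plus strand, across an exon junction): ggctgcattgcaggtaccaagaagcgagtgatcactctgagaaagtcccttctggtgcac
Their partners were bright. *Rpl10*, an X-linked gene of a late-joining large subunit protein, gave 30441 and 32136 in replicate 1 and 33702 and 31934 in replicate 2, with a mean log2 ratio of 0.00020. *Rpl3*, which lies near the peptidyl transferase centre, gave 22839 and 21714 in replicate 1 and 21742 and 23787 in replicate 2. The IWP-2 pools lay between the controls for *Rpl10*, and one below and one above them for *Rpl3*.

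*Rpl39l*, a paralog of *Rpl39* known from the testis, was the exception to the small ratios. It gave 32.8 in control and 46.0 in IWP-2 pools of replicate 1, and 38.1 and 50.9 in replicate 2, all flagged as well above background. Both IWP-2 pools lay above both controls, with log2 ratios of 0.49 and 0.42 (mean 0.45). The gene was too dim for the test, as its signal never reached 100. A fit over genes of every signal gives no usable test, since limma then called 0 of 29924 genes and *Axin2* was lost as well. With normexp background correction the mean ratio was 0.33. The first 30 bases of its 1 probe (mm9 chr16:10174657-10174716, plus strand) are ctgtgctttagtgagttcattcagcagttc. *Rps27*, the partner of *Rps27l*, had ratios of 0.081 and −0.068 (mean 0.0067) with its brightest probe. The other *Rps27* probes gave means of −0.018, −0.016 and −0.048. The array annotation places these probes on chr9, while the annotated start of *Rps27* lies on chr3.

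The arrays disagreed in sign for most members. In 50 of 77 genes (64.9%) the 2 ratios had opposite signs, against 45.2% of all genes. Of these 50, 37 (48.1% of the members) were above 0 in replicate 1 and below 0 in replicate 2, which in both arrays means a brighter red than green channel, against 22.9% of all genes. The other 13 had a brighter green channel in both arrays. Some related groups came near these shares. Opposite signs were seen in 51.9% of mitochondrial ribosomal protein genes, 56.6% of ribosome biogenesis genes and 63.2% of p53 targets. The red channel was brighter in both arrays for 42.9%, 45.3% and 57.9% of them. These 2 shares were 52.5% and 26.7% for the other genes above 10000. They were 46.4% and 21.4% for non-ribosomal TOP mRNAs, and 38.1% and 14.3% for TOP mRNA regulators and chaperones. Only 16 members were below 0 in both arrays (20.8%, against 29.1% of all genes) and 11 above 0 in both (14.3%, against 25.7%). The counts depended on the scaling. With median centring in place of loess, 2 members were below 0 in both arrays and 29 above, and with normexp background correction these counts were 7 and 3.

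Over the 77 members the ratios of the arrays had a Pearson correlation of −0.43, a description over genes that share 2 hybridizations, against 0.44 over all genes and 0.31 over the other genes with signals above 10000. The median ratio was 0.021 in replicate 1 and −0.024 in replicate 2. The medians were 0.042 and −0.039 over the large subunit genes and 0.016 and −0.012 over the small subunit genes, a difference that was not tested. The mean of both arrays had a median of −0.0012 over 45 large subunit genes and 0.0052 over 32 small subunit genes. The red over green ratio, averaged over both arrays, had an SD of 0.047 over members, against 0.030 for the mean ratio of IWP-2 over control.

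*Rps15* and *Rps4x* were among the genes whose arrays differed most. *Rps15*, a small subunit gene, gave 26613 in control and 29139 in IWP-2 pools of replicate 1, and 29078 and 26965 in replicate 2. The red channel was the brighter one in both arrays, with log2 ratios of 0.13 and −0.11. *Rps4x*, an X-linked small subunit gene, ran the other way, with 20023 and 18240 in replicate 1 and 18655 and 19770 in replicate 2 (−0.13 and 0.084). Whether the dyes or the sex of the pools set these differences cannot be told apart here. The other X-linked members were *Rpl10* (0.078 and −0.078), *Rpl36a* (−0.035 and −0.0028) and *Rpl39*, with no order common to the 4.

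**Figure D3:**
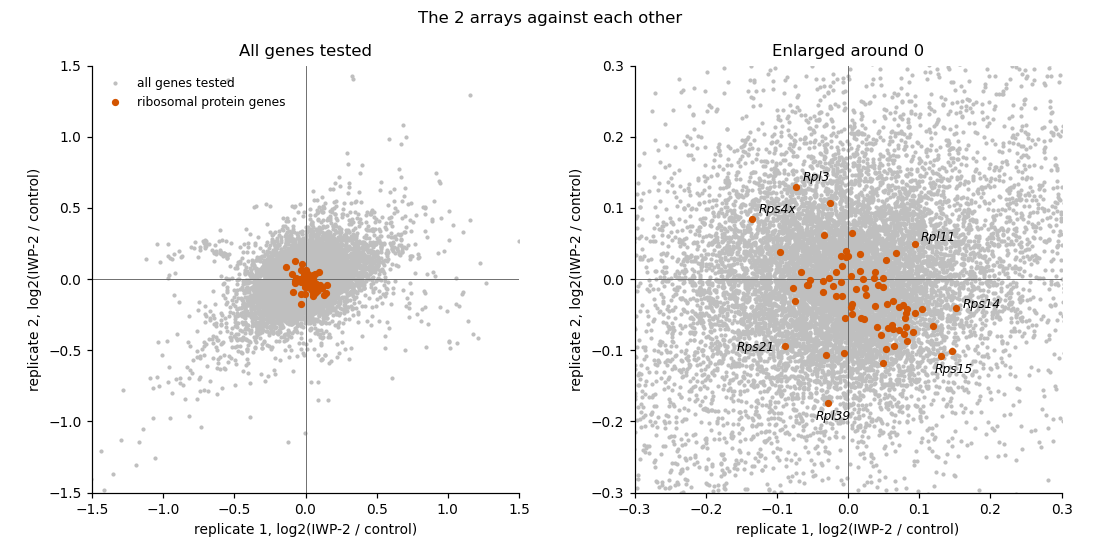
Log2 ratio of IWP-2 over control in replicate 1 (horizontal axis) against replicate 2 (vertical axis), for all 14336 genes tested (grey) and the 77 ribosomal protein genes (orange), over a wide range on the left, where 30 genes lie outside the axes, and enlarged around 0 on the right. The grey cloud runs from lower left to upper right, whereas the orange points lie close to 0, with 37 of them to the lower right of the crossing of the zero lines.

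The processing bears on these values. The scanner software normalized the dyes with a set of spots whose rank agreed between channels, and 38.2% of the members' spots belonged to that set in replicate 1 and 39.6% in replicate 2, against 5.10% and 5.11% of all spots. Members made up 286 of the 8043 spots of that set in replicate 1 and 296 of 8054 in replicate 2. They were thus over-represented in it, though most of the set was other genes. How much of a change shared by all ribosomal protein mRNAs the dye normalization would remove was not tested. Leaving the members' spots out of the further loess step moved their median only to −0.00056. Starting from raw spot means with normexp left out the software's dye normalization but kept the loess step, members included. The medians were then 0.098 and −0.099 in the 2 arrays, with −0.0034 for the mean of both, and 0 members were called. Whether that loess step would remove a change shared by all members was not tested.

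The array carries 187 probes for the 80 genes, 1 probe for 20 of them. Of the 107 probes that were not the brightest of their gene, 101 were bright enough to compare, and 98 of these gave a mean log2 ratio within 0.1 of the brightest probe. Their median was −0.016 and their range −0.19 to 0.12.

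At the lower end of the order, the brightest *Rpl39* probe lies at mm9 chrX:34622696-34623990 on the minus strand, across an exon junction.
*Rpl39* probe: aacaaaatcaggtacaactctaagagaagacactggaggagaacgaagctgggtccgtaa
The second *Rpl39* probe gave −0.089 and −0.12 and the third, a dim one, −0.14 and −0.16, so the 3 probes were below 0 in both arrays. *Rpl38* had 2 probes with means of −0.055 and −0.049. At the upper end, the brightest *Rpl11* probe lies at mm9 chr4:135605902-135606224 on the minus strand, also across a junction, and gave the mean of 0.072.
*Rpl11* probe: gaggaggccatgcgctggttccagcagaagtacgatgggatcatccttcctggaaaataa
The other *Rpl11* probes gave means of 0.013 and −0.0038. The first of them overlaps the brightest probe by 37 bases, of which 2 letters differ. Ribosomal protein genes have many near-identical processed copies in the genome, and which copies the probes also bind was not analysed here. Among 21 pairs of overlapping probes, 15 differed by 1 to 6 letters, and within a pair the mean log2 ratios differed by at most 0.075.

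Genes that the name rule left out but that encode ribosomal proteins or close relatives gave similar values. *Fau*, whose protein is made as a fusion with a ubiquitin-like protein, had a mean log2 ratio of 0.031. *Rps3a1* had 0.024, *Rpl37rt* −0.021, *Rpl36al* −0.048 and *Rpl7l1* 0.027. *Rpl22l1*, a paralog of *Rpl22*, had the lowest ratio of the group, with 12455 in control and 11419 in IWP-2 pools of replicate 1 and 12849 and 11963 in replicate 2 (−0.13 and −0.10, mean −0.11, SE 0.067, limma adjusted p = 0.63).

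The 13 members with a TOP tract at the annotated start had a median mean log2 ratio of −0.0036 (range −0.091 to 0.031). For the 43 other tested members with a promoter entry it was 0.00023 (range −0.10 to 0.072). Some of these 43, *Rpl39* among them, hold a tract that begins within 5 bases of the start. Of 28 tested mRNAs outside the ribosome that are known to carry a TOP tract, such as translation factors, limma called 0, with a median of 0.021. *Eif4b* had the highest ratio of these (0.18 and 0.047, mean 0.11) and *Eif3a* the lowest (−0.21 and −0.043, mean −0.13). The mitochondrial ribosomal proteins, a separate family for the ribosome of that organelle, had 77 genes tested, 0 called and a median of −0.015. They ranged from −0.097 (*Mrpl54*) to 0.080 (*Mrpl39*).

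Ribosome biogenesis genes, which make and process ribosomal RNA, had 53 genes tested, 0 called and a median of −0.025. *Utp20*, of the small subunit processome, was the lowest (−0.28 and −0.15, mean −0.21, limma adjusted p = 0.26), and *Ncl*, nucleolin, the highest (0.15 and 0.12, mean 0.13, adjusted p = 0.52). The 21 tested regulators of TOP mRNAs and chaperones of ribosomal proteins also had 0 called, with a median of 0.0081. *Mycn* had the lowest ratio of these, with 475 in control and 355 in IWP-2 pools of replicate 1 and 420 and 332 in replicate 2. Both IWP-2 pools lay below both controls (−0.42 and −0.34, mean −0.38, SE 0.068), but the adjusted p of 0.068 missed the threshold. *Myc* gave −0.072 and −0.030, and *Rps6kb1*, an S6 kinase, was the highest with 0.055 and 0.15. Of 19 tested p53 targets 0 were called, with *Perp* at the upper end (0.37 and 0.19, mean 0.28, adjusted p = 0.17) and *Gtse1* at the lower (−0.22 and −0.16, mean −0.19).

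**Figure D4:**
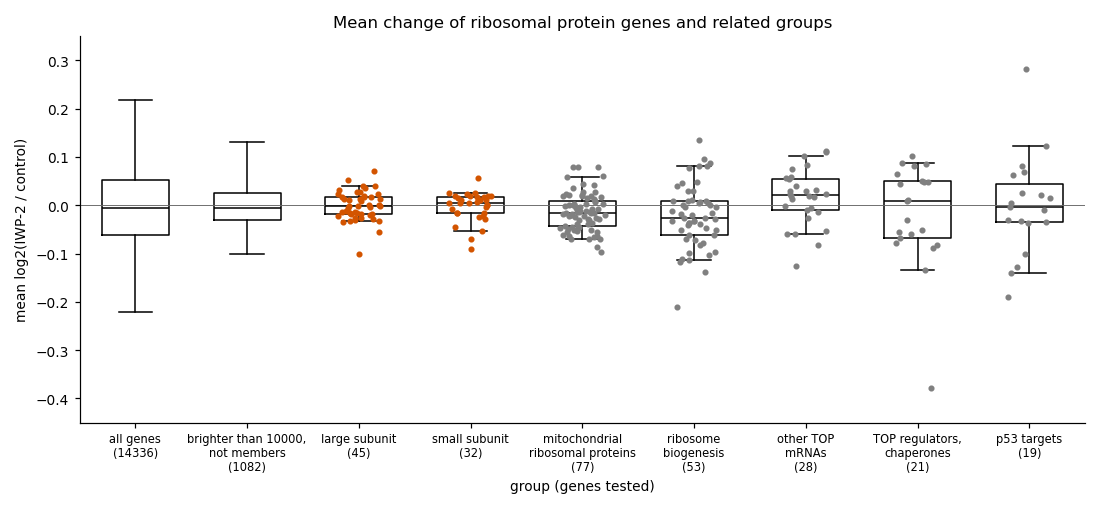
Mean log2 ratio of IWP-2 over control (vertical axis) for groups of genes (horizontal axis, number tested in parentheses); boxes are quartiles with the median, whiskers the 5th and 95th percentile, and points single genes in groups under 200 genes (large and small subunit in orange). The boxes of the large and small subunit genes are the shortest, and the lowest point is *Mycn* at −0.38.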

How the data were processed

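The authors deposited scanner intensities of 2 two-colour Agilent arrays, extracted with Feature Extraction (version 12.2.0.7 per the file headers, 10.7.3.1 in the submitters' processing notes), which corrected spatial trends and normalized the dyes linearly and by LOWESS. The deposited log10 ratio of red over green was used only to check directions, and equalled that of the processed signals within 0.001 for 82.8% and 83.1% of spots. The deposited series table holds a score, a signed fold change with 1 decimal (column medians 1 and 1), and served as an alternative. It followed the ratios used here with r = 0.98 and 0.97, so its direction is treated over control. The number of other per-sample columns was 0.

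Control spots (17263) and outlier-flagged spots (3.32% and 3.22%) were left out. Processed signals were normalized by loess within each array with limma 3.58.1 (R 4.3.3), averaged over spots, floored at 15 and expressed as log2. The brightest probe represented a gene. Ratios of IWP-2 over control were tested against 0 (lmFit, eBayes, Benjamini-Hochberg at 0.05 over 14336 genes). The pools of an array share a hybridization and a sex, so ratios are paired by construction. Each channel held 1 pool of several ureters, so p-values rest on the spread between the ratios of the 2 arrays. Differences of pool, dye and sex are mixed in that spread, which limma draws towards the one over all genes. Median SDs between spots of a member's probe were 0.037 and 0.037.

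Genes named were members called, the 8 lowest and 8 highest means, members not above background, stalk and fusion members, paralogs with partners, members with known extra roles, the 3 largest array differences, and of each related list the extremes. *Rps4l*, *Rps7*, *Rpl4*, *Rpl7*, *Rpl14*, *Rpl30*, *Rpl36a*, *Rpl37a*, *Myc* and the markers were picked with their values in view. A few genes that these rules would name are not reported here. Members and lists were chosen with earlier results of these data known. The steps were tested on simulated data. Alternatives covered normalization, background correction, flagged spots, floor, filters, probe summary, fold threshold, pairing and leaving out an array. Gene names and mm9 probe positions are those of the array files.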

Additional observations from a re-analysis of the deposited data

Results flagged for a closer look

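Several values moved one way in the female pools (replicate 1) and the other way in the male pools (replicate 2). These differences were not tested, since each sex is 1 array, and sex and dye orientation cannot be told apart. As female minus male, the median log2 ratio differed by 0.045 over the ribosomal protein genes, by 0.081 over the large subunit and by 0.028 over the small subunit. Among related groups the difference was 0.038 for mitochondrial ribosomal proteins, 0.055 for ribosome biogenesis, 0.14 for ribosomal protein genes outside the name rule and 0.085 for p53 targets. Of single members, *Rps15* differed by 0.24, *Rpl10* by 0.16, *Rplp2* by 0.15 and *Rps27* by 0.15, all with a brighter red channel in both arrays. *Rps4x* differed by −0.22 and *Rpl3* by −0.20, with a brighter green channel in both.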

How the results depend on the processing

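The number of ribosomal protein genes called by limma was 0 in either direction under every alternative but 1, and the number past the 1.5-fold filter was 0 under all of them, with folds of 1.2 and 2 included. The exception was the deposited series table, which has 1 decimal, so that a gene with the same rounded value in both arrays has no measured spread. There 1 member was called lower (*Rps21*, −0.14) and 1 higher (*Rpl11*, 0.14), each in 1 subunit, with 1 member below 0 in both arrays, 1 above and 13 of opposite sign. The same series table called 3 ribosome biogenesis genes lower and 2 higher, 1 other TOP mRNA higher (with a median of 0 for that list), 1 regulator lower, 1 ribosomal protein gene outside the rule lower, 2 p53 targets lower and 1 mitochondrial ribosomal protein higher. Median centring in place of loess raised the median of all genes to 0.025, that of the members to 0.033, that of the small subunit to 0.038, that of the mitochondrial ribosomal proteins to 0.018 and that of the other TOP mRNAs to 0.054. It left 2 members below 0 in both arrays and 29 above. Normexp background correction left 7 below and 3 above, and a median of 0.019 for the other TOP mRNAs.

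Leaving out an array in turn, the median ran from −0.024 to 0.021 over the members, from −0.041 to 0.013 for ribosome biogenesis, from 0.021 to 0.025 for the other TOP mRNAs and from −0.063 to −0.0034 for the regulators of TOP mRNAs. Without the pairing of the pools on an array (no replicate block), 8 of all genes were called in place of 179 and 0 members, with the same median of 0.00023. The fits over all dim genes and over genes well above background called 0 genes of any kind, so their 0 members called say nothing of stability; 3 and 2 members had an unadjusted p under 0.05 there. *Axin2* was not called in these fits (adjusted p = 0.62 and 0.47) or in the series table (adjusted p = 0.32), with −1.91 in each. A change well under 1.2-fold in single members could not be seen with 2 arrays. How much of a change common to all ribosomal protein mRNAs the dye normalization would remove was not tested. The limma calls could also miss larger changes in single members. *Mycn*, with a mean log2 ratio of −0.38 (SE 0.068), was not called (limma adjusted p = 0.068). The count of 0 members called therefore says little about changes of that size or smaller. The limits on single members come from the limma intervals, which lay inside 1.25-fold in either direction for 77 of 77.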
